A study of Homo sapiens with 12 samples.

Results

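The 9 genes described here are retinoid receptors and genes that retinoic acid is known to act on or to induce: RARA, RARB, RARG, RXRA, RXRB, CYP26B1, CRABP2, DHRS3 and TGM2. They were taken by gene symbol from the 26485 symbols of the deposited count files, because SR11302, an inhibitor tested in this study, is a retinoid-related compound. All 9 had enough counts to be tested. RNA-seq was performed on 12 libraries in 6 groups of 2 libraries. A549, a human lung adenocarcinoma line, was given 10 µM SR11302, an inhibitor of the transcription factor AP-1, or 50 µM SP600125, an inhibitor of the JNK kinases that activate AP-1, for 72 h each, or was left without treatment (NT). B2B (BEAS-2B, an immortalized human bronchial epithelial line) was given the same inhibitors at the same doses and time, or no treatment (NT). All 6 groups carry the wild-type genotype label. The inhibitors were dissolved in DMSO. The labels give the NT groups no agent, but legends of the study name DMSO for its control cells, so it is uncertain whether the NT cells received the solvent. Nothing in the labels says that replicates came from separate cultures, so p-values measure the spread between these libraries, which may be technical.

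Retinoic acid, made from vitamin A, acts through receptors of the RAR family (RARA, RARB and RARG), which bind DNA as partners of RXR receptors (RXRA and RXRB). Its supply and removal are set by enzymes such as DHRS3, which turns retinaldehyde back into retinol, and CYP26B1, which oxidizes retinoic acid for clearance, and CRABP2 carries it to the nucleus. Retinoids have long been known to suppress AP-1, and in the airway vitamin A is needed to keep the normal epithelium. SR11302 has been described as suppressing AP-1 while activating retinoid response elements little.

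Counts assigned to genes ranged between 13969766 and 24917854 per library. Levels are given as CPM, the counts of a gene relative to all gene counts of its library, scaled by TMM factors. A gene was called changed at a Benjamini-Hochberg adjusted p under 0.05 over the 16373 genes tested (edgeR quasi-likelihood F test) with a log2 fold change of at least 0.5 in either direction. Reads that the counting assigned to no feature made up 14.6% to 20.1% of the treated libraries and 23.8% to 25.9% of the NT libraries. Reads that it left as ambiguous made up 1.19% to 1.49% of the treated libraries and 1.94% to 2.03% of the NT libraries. These properties and treatment cannot be told apart in any comparison with NT. All 6 epithelial markers had counts in every library, but not all were high. In B2B libraries EPCAM had 1.13 to 2.55 CPM, KRT19 0.312 to 3.91 CPM and CDH1 0.575 to 3.38 CPM. KRT7, KRT8 and KRT18 had 187 to 998 CPM there. In A549 libraries EPCAM had 23.4 to 67.6 CPM and KRT19 1.56 to 7.06 CPM. Of 5 alveolar type II markers, the surfactant transcripts SFTPA1, SFTPB and SFTPC stayed under 1 CPM throughout. ABCA3, also on that list, was not low, with 44.9 to 92.8 CPM over all libraries. NKX2-1, the remaining one, was above 1 CPM in all B2B libraries (at most 4.89 CPM) and had at most 0.209 CPM in A549 libraries. CD3E was at 0 in all libraries, and PTPRC stayed under 1 CPM. CD68, also among the markers of other cell types, was not low. It had 43.8 to 49.8 CPM in A549 with SR11302 and in A549 NT, and 3.35 and 3.52 CPM with SP600125 (log2 fold change −3.73, called). In B2B it had 11.3 and 11.5 CPM in NT, 18.3 and 19.3 CPM with SR11302 (0.72, called) and 5.82 and 9.37 CPM with SP600125 (−0.59, called). The 6 A549 marker genes summed to 14688 to 21652 CPM in A549 libraries, to 3.04 to 7.17 CPM in 5 B2B libraries and to 88.0 CPM in B2B NT replicate 2, which is 0.577% of their level in A549 NT. That share of each A549 NT level comes to at most 1.66 CPM, for TGM2. The 6 epithelial markers summed to 6757 and 6822 CPM in A549 with SP600125 and 8689 and 11246 CPM with SR11302, against 14116 and 16256 CPM in A549 NT, and to 712 to 867 CPM in B2B with SP600125 and 1384 to 1589 CPM with SR11302, against 1682 to 1868 CPM in B2B NT. Within this list CDH1 went the other way with SP600125, with 438 and 380 CPM in A549, against 122 and 128 CPM in NT, and 3.38 and 2.37 CPM in B2B, against 0.575 and 1.79 CPM in NT (log2 fold changes 1.71 and 1.24, both called), and KRT7 rose with SR11302 in A549 (0.61). The 9 markers of other cell types, of which 1 to 3 had no counts in a library, summed to 28.8 to 29.8 CPM in A549 with SP600125 and 80.5 to 94.7 CPM with SR11302, against 54.6 to 70.4 CPM in A549 NT. In B2B, which makes the collagen COL1A1 itself, their sum was 1413 to 1553 CPM with SP600125 and 5428 to 5469 CPM with SR11302, against 6797 to 6953 CPM in B2B NT. The endothelial markers PECAM1, VWF and CDH5 were called higher with SP600125 in both lines. They had 2.48 to 7.08 CPM in A549 with SP600125, against 0 to 0.212 CPM in NT, and 0.832 to 4.87 CPM in B2B with SP600125, against 0 to 0.733 CPM in NT. VWF was also called higher with SR11302 in B2B (1.47). Genes with an NT mean of at least 5 CPM and more than 20 times lower means in both treated groups numbered 12 in A549 and 8 in B2B, of which 7 and 5 encode ribosomal proteins such as RPL7 and RPS27, and none of the 9 genes was among them. The part of these shifts in the results for the 9 genes was not tested.

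To see how the 9 genes differ between the lines before any inhibitor, A549 NT was compared with B2B NT. TGM2, DHRS3, RARB, CYP26B1 and RARA were higher in A549, whereas RXRB and RARG were lower, so 7 of the 9 were called. Of all genes tested 56.9% were called in this comparison, 30.4% higher and 26.5% lower in A549. The median log2 fold change was 0.62 over the 9 genes and 0.05 over all genes. Scaled per kilobase of annotated exon, the order of levels in A549 NT ran TGM2 at 36.1 CPM per kilobase, DHRS3 at 22.9, CYP26B1 at 16.3, RARA at 12.4, RXRA at 7.00, RXRB at 6.37, RARG at 6.36, RARB at 4.16 and CRABP2 at 2.52. In B2B NT the receptors other than RARB stood at the top of the same scale, with RXRB at 13.7 CPM per kilobase, RARG at 9.12, RARA at 8.06 and RXRA at 5.95. There CYP26B1 had 2.59 CPM per kilobase, CRABP2 had 2.50, DHRS3 had 1.18, TGM2 had 0.89 and RARB had 0.51. The exon lengths join all annotated exons of a gene and overstate the length of a gene with many alternative exons.

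**Figure D1:**
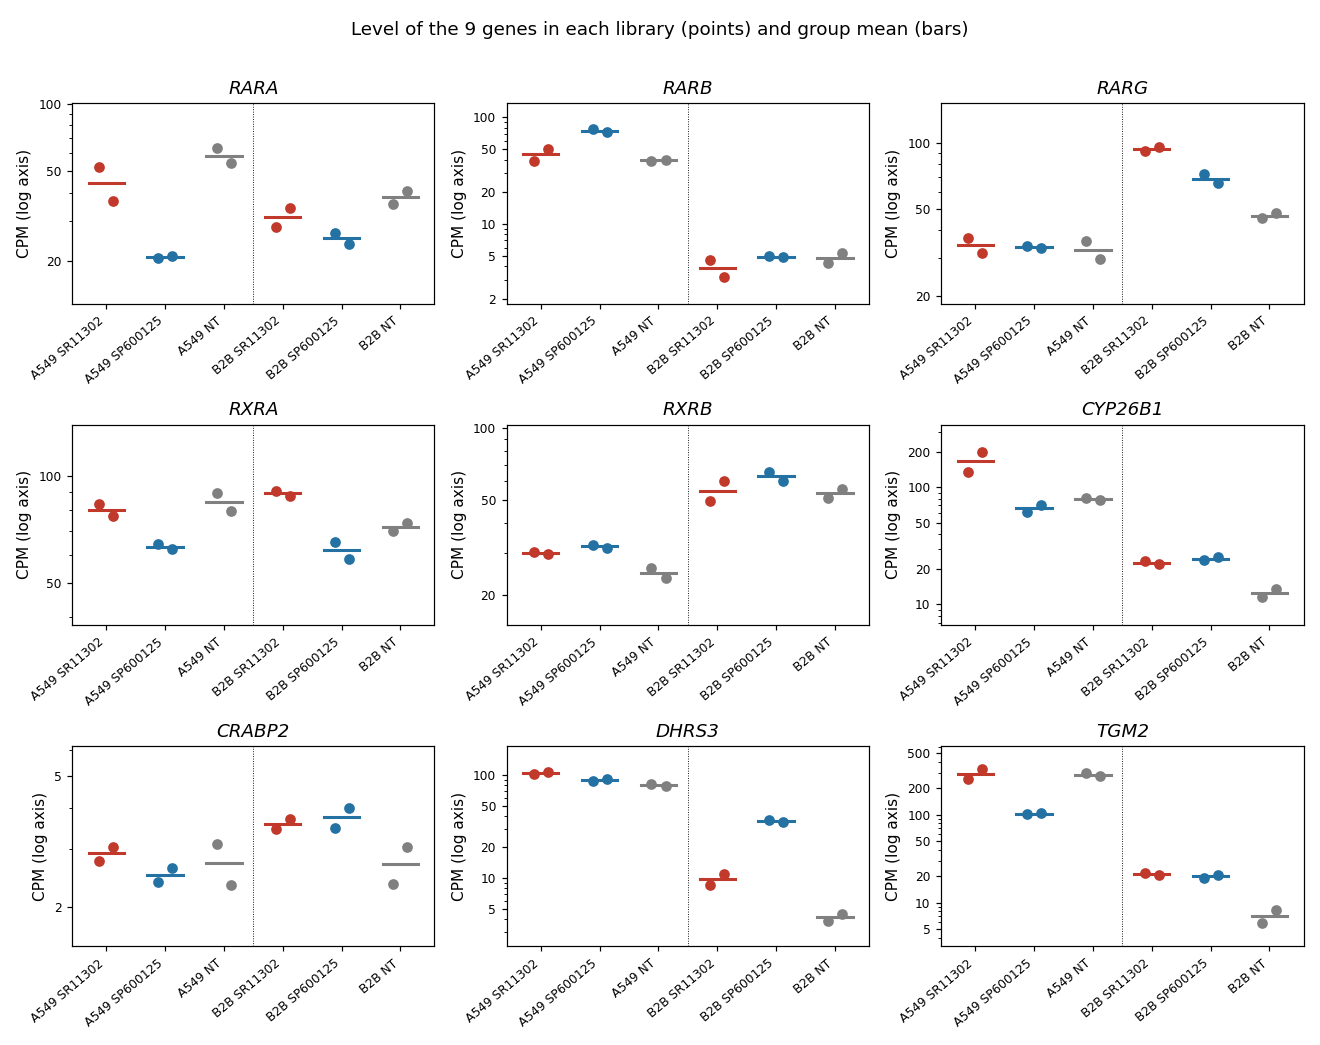
Levels (CPM, log axis) of each of the 9 genes, where points are libraries and short lines are group means, in red for SR11302, blue for SP600125 and grey for NT, A549 left and B2B right of the dotted line. In B2B, the NT libraries of TGM2 (5.84 and 8.31 CPM) and DHRS3 (3.83 and 4.48 CPM) lie below both treated groups, while in A549 TGM2 is lowest under SP600125 (101 and 104 CPM).

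RARA, the RAR present in most tissues, lies at chr17:40309180-40357643 on the plus strand (GENCODE v44, hg38, as are all gene positions here). Its level was 20.5 and 21.0 CPM in A549 with SP600125, against 63.3 and 54.2 CPM in A549 NT. RARA was lower in these SP600125 libraries than in any other library of the study, and it fell by 1.50 on the log2 scale (SE 0.17, edgeR adjusted p = 7.57e-06). With offsets for GC content the fall was 0.69 in size (log2 fold change −0.69) and was still called. RARA transcripts have a GC content of 61.9%, higher than that of 91.0% of tested genes, and across genes the log2 fold change of this comparison went down with GC content (Spearman rho −0.39 over 15809 genes, which are not independent). SR11302 gave 52.1 and 36.9 CPM in A549, below A549 NT but far apart from each other, and the log2 fold change of −0.40 (SE 0.16, edgeR adjusted p = 0.0664) was not called. Without SR11302 replicate 1 it was −0.67 and called.

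In B2B, RARA had 26.7 and 23.9 CPM with SP600125, against 35.8 and 40.7 CPM in NT. The groups did not overlap, and the log2 fold change of −0.60 (SE 0.17, edgeR adjusted p = 0.00771) was called. The call was lost without SP600125 replicate 2 (−0.52), without NT replicate 2 (−0.50), without replicate 2 of both NT groups (−0.50, adjusted p = 0.0791), without scaling beyond library size (−0.46) and with GC offsets (−0.18). SR11302 gave 28.2 and 34.5 CPM in B2B, all below the NT libraries, with a log2 fold change of −0.29 that was not called (SE 0.16, edgeR adjusted p = 0.201). Between the untreated lines RARA was higher in A549 by 0.62 on the log2 scale (SE 0.16, edgeR adjusted p = 0.00392), which dropped under the fold minimum without A549 NT replicate 1 (0.499), by library size only (0.49) and with GC offsets (0.42). RARA shares 556 exonic bases, 11.7% of its own, with the antisense RNA RARA-AS1, whose level was 0.969 to 2.44 CPM. The strand setting of the counting is not given in the sources used here.

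RARB, the RAR whose own promoter is the best-known target of retinoic acid, lies at chr3:24687887-25597932 on the plus strand. It had 76.9 and 72.0 CPM in A549 with SP600125, against 38.7 and 39.9 CPM in A549 NT. Both treated libraries were above every other library, and RARB rose by 0.92 on the log2 scale (SE 0.16, edgeR adjusted p = 0.000228). SR11302 gave 38.7 and 50.8 CPM in A549, and the lower of these equalled an NT library to 3 digits. The log2 fold change with SR11302 was 0.19 (95% interval −0.15 to 0.53, edgeR adjusted p = 0.372), which leaves room for a rise of up to 0.53.

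B2B held far less RARB, at 4.60 and 3.15 CPM with SR11302, 4.99 and 4.87 CPM with SP600125, and 4.31 and 5.37 CPM in NT. Each treated group overlapped NT, and the counts behind these levels were 56 to 132 per library. The SR11302 libraries lay below the SP600125 libraries, a difference that was not called (log2 fold change 0.32 for SP600125 against SR11302). Neither inhibitor gave a call there, with log2 fold changes of −0.30 (95% interval −0.75 to 0.14) for SR11302 and 0.02 (−0.42 to 0.46) for SP600125. A549 NT exceeded B2B NT by 3.01 on the log2 scale (SE 0.18, edgeR adjusted p = 3.57e-09).

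The start region of RARB that holds a retinoid response element is shown here because RARB is the receptor gene that rose in A549. RefSeq lists 17 start regions for 8 of the 9 genes (250 bases before to 50 after a start, GRCh38.p14), and TGM2 has no entry in the table used. They were searched on both strands for the DR5 element, a direct repeat of the receptors' binding hexamer spaced by 5 bases, and for its DR2 and DR1 forms. A DR5 match was found in 31 of 34943 start regions (0.0887%) and in 1 of the 17, 53 to 37 bases before a RARB start inside the gene. No DR2 or DR1 match was found in the 17, against 0.0372% and 0.132% of all start regions. The match stands in capitals in the 250 bases before that start, chr3:25428013-25428262 on the plus strand, read 5′ to 3′.
RARB: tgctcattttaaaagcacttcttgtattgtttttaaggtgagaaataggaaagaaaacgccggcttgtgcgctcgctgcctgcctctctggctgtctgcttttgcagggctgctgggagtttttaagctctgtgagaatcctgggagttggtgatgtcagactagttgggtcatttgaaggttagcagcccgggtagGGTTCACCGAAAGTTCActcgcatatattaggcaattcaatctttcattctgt
The counts are per gene and do not show which RARB start was used. A match is a description of the letters and no evidence that a receptor bound there.

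RARG, the RAR that prevails in skin, lies at chr12:53210567-53232980 on the minus strand. In B2B it had 92.1 and 95.7 CPM with SR11302 and 72.1 and 65.5 CPM with SP600125, against 45.5 and 48.0 CPM in NT. The 3 groups did not overlap, and the SR11302 libraries were the highest of all 12. RARG rose with SR11302 by 1.01 on the log2 scale (SE 0.12, edgeR adjusted p = 5.58e-05) and with SP600125 by 0.56 (SE 0.12, edgeR adjusted p = 0.00151). The second of these was 0.45, under the fold minimum, without SP600125 replicate 1. In A549 the 6 libraries lay between 29.5 and 37.1 CPM: 37.1 and 31.7 CPM with SR11302, 34.0 and 33.4 CPM with SP600125, and 35.7 and 29.5 CPM in NT. The log2 fold changes there were 0.08 (95% interval −0.19 to 0.34) with SR11302 and 0.05 (−0.22 to 0.32) with SP600125, and GC offsets moved the SP600125 value to 0.73, past the threshold. RARG transcripts are GC-rich, above 86.2% of tested genes. A549 NT was below B2B NT by a log2 fold change of −0.52 (SE 0.12, edgeR adjusted p = 0.00189), which shrank to −0.39 without A549 NT replicate 2, to −0.49 without B2B NT replicate 2 and to −0.35 without both, none of them called.

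RXRA, a common DNA-binding partner of the RARs, lies at chr9:134317098-134440585 on the plus strand and varied least with CRABP2, by 1.44-fold between its highest and lowest group means. Its levels in A549 were 83.0 and 77.3 CPM with SR11302, 64.2 and 62.2 CPM with SP600125, and 89.5 and 79.6 CPM in NT. In B2B they were 90.8 and 87.6 CPM with SR11302, 65.1 and 58.4 CPM with SP600125, and 69.8 and 73.8 CPM in NT. The SP600125 libraries were the 4 lowest of the 12. No comparison with NT gave a call, since the 2 log2 fold changes with an edgeR adjusted p under 0.05, −0.42 for SP600125 in A549 (adjusted p = 0.00391) and 0.31 for SR11302 in B2B (adjusted p = 0.0375), were under the fold minimum. The first changed sign, to 0.29, with GC offsets, and was just past the fold minimum, at −0.50, without A549 NT replicate 2.

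RXRB, the second RXR of the set, lies at chr6:33193588-33200665 on the minus strand. It had 30.2 and 29.7 CPM with SR11302 and 32.4 and 31.5 CPM with SP600125 in A549, against 26.0 and 23.6 CPM in A549 NT. Each treated A549 library was above both NT libraries, by log2 fold changes of 0.27 with SR11302 (edgeR adjusted p = 0.104) and 0.36 with SP600125 (edgeR adjusted p = 0.0233) that stayed under the fold minimum. With GC offsets the SP600125 value was 0.92 and called. B2B libraries had 49.5 and 59.9 CPM with SR11302, 65.6 and 60.2 CPM with SP600125, and 50.8 and 55.8 CPM in NT, with no call. All A549 libraries were below all B2B libraries, and A549 NT was lower than B2B NT by a log2 fold change of −1.10 (SE 0.12, edgeR adjusted p = 2.37e-06). RXRB shares 361 exonic bases, 9.26% of its own, with SLC39A7 on the other strand (117 to 209 CPM). RXRG, the RXR of muscle and brain, had 0 counts in every library, which allows at most 0.215 CPM in the shallowest library (3 counts).

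CRABP2, the carrier, lies at chr1:156699606-156705816 on the minus strand and rests on few counts, 32 to 84 per library. It had 2.77 and 3.05 CPM with SR11302, 2.38 and 2.62 CPM with SP600125, and 3.11 and 2.34 CPM in NT in A549. B2B libraries had 3.45 and 3.72 CPM with SR11302 and 3.48 and 4.02 CPM with SP600125, against 2.35 and 3.05 CPM in NT. The treated B2B libraries were all above the NT libraries, but no change was called, with log2 fold changes of 0.40 (95% interval −0.09 to 0.88) for SR11302 and 0.46 (−0.03 to 0.95) for SP600125. The SP600125 value was 0.60 by library size only and 0.56 with GC offsets, both called.

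DHRS3, the retinaldehyde reductase, lies at chr1:12567910-12618210 on the minus strand and gave the largest change with treatment among the 9. In B2B it had 36.5 and 35.3 CPM with SP600125 and 8.55 and 11.0 CPM with SR11302, against 3.83 and 4.48 CPM in NT. The 3 groups did not overlap. DHRS3 rose 8.60-fold with SP600125 (log2 fold change 3.10, SE 0.14, edgeR adjusted p = 4.96e-09) and 2.33-fold with SR11302 (1.22, SE 0.15, edgeR adjusted p = 7.44e-05). The A549 marker genes summed to 3.04 to 7.17 CPM in these treated libraries, against 3.45 and 88.0 CPM in B2B NT.

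In A549, DHRS3 had 102 and 108 CPM with SR11302 and 87.3 and 91.3 CPM with SP600125, against 82.1 and 78.9 CPM in NT. The SR11302 change of 0.39 (SE 0.12, edgeR adjusted p = 0.0191) was under the fold minimum, and reached 0.51 by library size only and 0.52 with GC offsets. That of SP600125 was 0.15 (95% interval −0.10 to 0.40), or 0.52 and called with GC offsets. DHRS3 in A549 NT exceeded that in B2B NT 19.3-fold (log2 fold change 4.27, SE 0.15, edgeR adjusted p = 1.44e-11), and even the highest B2B library, at 36.5 CPM, was below every A549 library.

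The start regions were also searched on both strands for TGANTCA, the letters of the AP-1 site, because both inhibitors act on AP-1. They occur in 7.72% of all start regions and in 1 of the 17, 85 to 79 bases before a DHRS3 start inside the gene. The site is in capitals in the 100 bases before that start, chr1:12596614-12596713 on the minus strand (GRCh38.p14), read 5′ to 3′. It did not overlap any other match.
DHRS3: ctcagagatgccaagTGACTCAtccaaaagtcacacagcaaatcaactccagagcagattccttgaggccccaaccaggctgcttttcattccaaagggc
As with RARB, the counts do not separate this start from the other DHRS3 starts.

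CYP26B1, the retinoic acid hydroxylase, lies at chr2:72129238-72147862 on the minus strand and rose in 3 of the 4 comparisons with NT. In A549 it had 136 and 199 CPM with SR11302, against 80.5 and 77.4 CPM in NT. It rose 2.12-fold (log2 fold change 1.09, SE 0.15, edgeR adjusted p = 0.000127), although the SR11302 libraries differed much from each other. The value was 0.81 to 1.33 when single libraries were left out or the processing was changed, and it was called each time. SP600125 gave 61.4 and 71.1 CPM in A549, below both NT libraries, with a log2 fold change of −0.25 (95% interval −0.58 to 0.08). Levels in B2B were 23.5 and 22.0 CPM with SR11302 and 24.1 and 25.2 CPM with SP600125, against 11.5 and 13.5 CPM in NT. It rose there by 0.86 with SR11302 (SE 0.17, edgeR adjusted p = 0.00194) and by 0.97 with SP600125 (SE 0.17, edgeR adjusted p = 0.000292) on the log2 scale. A549 NT exceeded B2B NT 6.29-fold (log2 fold change 2.65, SE 0.17).

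TGM2, tissue transglutaminase, a protein cross-linking enzyme long known to be induced by retinoic acid, lies at chr20:38127385-38166578 on the minus strand. In B2B it had 21.6 and 20.6 CPM with SR11302 and 19.2 and 20.8 CPM with SP600125, against 5.84 and 8.31 CPM in NT. Each treated library was above 2 times the higher NT library. TGM2 rose 2.97-fold with SR11302 (log2 fold change 1.57, SE 0.17, edgeR adjusted p = 2.23e-05) and 2.81-fold with SP600125 (1.49, SE 0.17, edgeR adjusted p = 8.95e-06). In A549 with SP600125 it had 101 and 104 CPM, against 300 and 274 CPM in A549 NT, and it fell by 1.48 on the log2 scale (SE 0.15, edgeR adjusted p = 2.14e-06). SR11302 gave 253 and 332 CPM in A549, on either side of the NT libraries, with a log2 fold change of 0.03 (95% interval −0.28 to 0.33). A549 NT exceeded B2B NT 40.3-fold (log2 fold change 5.33, SE 0.18). TGM2 shares 396 exonic bases, 4.98% of its own, with RPRD1B on the other strand (43.4 to 84.0 CPM).

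Counted over the 9 genes, SR11302 gave 1 higher and 0 lower in A549, beside 27.8% of all genes called (14.8% higher, 13% lower), and 4 higher and 0 lower in B2B, beside 22.5% (11.4% higher, 11.1% lower). The 1 gene in A549 was CYP26B1, and the 4 in B2B were TGM2, DHRS3, RARG and CYP26B1. At an unadjusted p under 0.05, edgeR gave 1 of the 9 lower in A549 (RARA) and 0 lower in B2B with SR11302, and DESeq2 gave 0 lower in both lines. The A549 count became 2 by library size only and with GC offsets, with DHRS3 added, and also without SR11302 replicate 1, with RARA added. SP600125 gave 1 higher and 2 lower in A549, beside 48.8% of all genes called (23.9% higher, 25% lower), and 4 higher and 1 lower in B2B, beside 43.8% (21.2% higher, 22.6% lower). With GC offsets the A549 count was 6, since RARG, RXRB and DHRS3 were then called higher, and without A549 NT replicate 2 it was 4, with RXRA added. Medians over the 9 genes were 0.10 for SR11302 in A549, 0.40 for SR11302 in B2B, −0.12 for SP600125 in A549 and 0.46 for SP600125 in B2B, against medians over all genes of 0.01 to 0.02. The comparisons of both inhibitors in a line share the same NT libraries, so their values are not independent of each other.

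**Figure D2:**
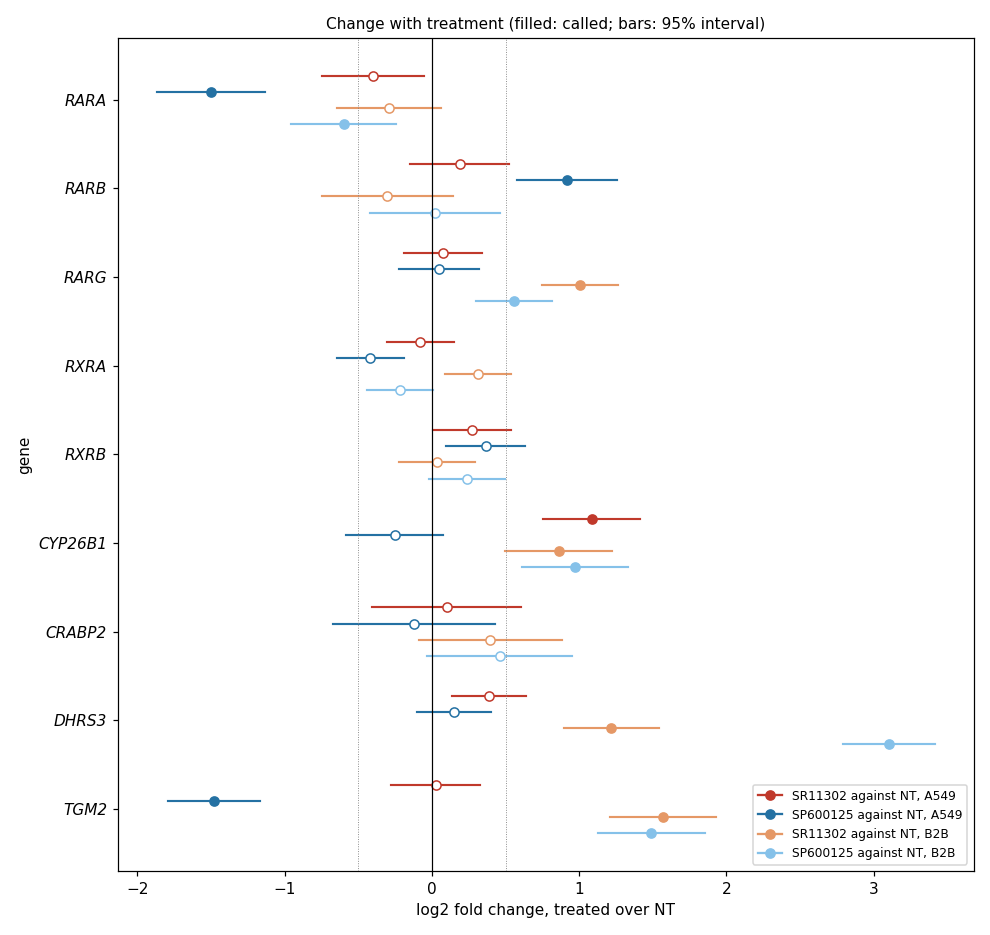
Log2 fold change over NT of the 9 genes (points) with the 95% interval (bars), by inhibitor and line, where filled points passed the adjusted p and the fold minimum of 0.5 (dotted lines). DHRS3 with SP600125 in B2B (3.10) lies farthest to the right, and RARA (−1.50) and TGM2 (−1.48) with SP600125 in A549 farthest to the left.

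To test whether the lines responded differently, the change in A549 minus the change in B2B was fitted in the same model. For SR11302, 3 of the 9 genes differed and all were lower in A549 than in B2B, beside 15.8% of all genes called (8.34% higher and 7.41% lower): TGM2 by −1.54 (SE 0.22, edgeR adjusted p = 0.000365), RARG by −0.93 (SE 0.17, edgeR adjusted p = 0.00248) and DHRS3 by −0.83 (SE 0.19, edgeR adjusted p = 0.0097). The DHRS3 call was lost without B2B SR11302 replicate 2 (−0.65, adjusted p = 0.0513) and without B2B NT replicate 1 (−0.72, adjusted p = 0.0709). The CYP26B1 difference was 0.23 (95% interval −0.26 to 0.71), so the rises of this gene in both lines could not be told apart in size.

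For SP600125, 6 of the 9 genes differed, 1 higher and 5 lower in A549, beside 25.2% of all genes called (12.1% higher and 13.1% lower). TGM2 differed by −2.97 (SE 0.22, edgeR adjusted p = 1.55e-06), DHRS3 by −2.95 (SE 0.19, edgeR adjusted p = 4.42e-07) and CYP26B1 by −1.22 (SE 0.23, edgeR adjusted p = 0.00172), and these 3 were called in every alternative run. TGM2 is the gene of the set that was called in opposite directions in the lines under this inhibitor. RARA differed by −0.90 (SE 0.24, edgeR adjusted p = 0.0127), RARB by 0.90 (SE 0.26, edgeR adjusted p = 0.0207) and RARG by −0.51 (SE 0.17, edgeR adjusted p = 0.0445). Of these, RARA lost its call without A549 SP600125 replicate 1, A549 NT replicate 1, B2B SP600125 replicate 1 or B2B NT replicate 1 (values of −0.79 to −0.89, adjusted p of 0.0526 to 0.0679). RARB lost it in 5 of the 8 runs without 1 library (0.73 to 0.95) and without replicate 2 of both NT groups (0.75, adjusted p = 0.167). RARG kept it in 2 of 16 alternatives and ranged between −0.68 and −0.14 over them.

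**Figure D3:**
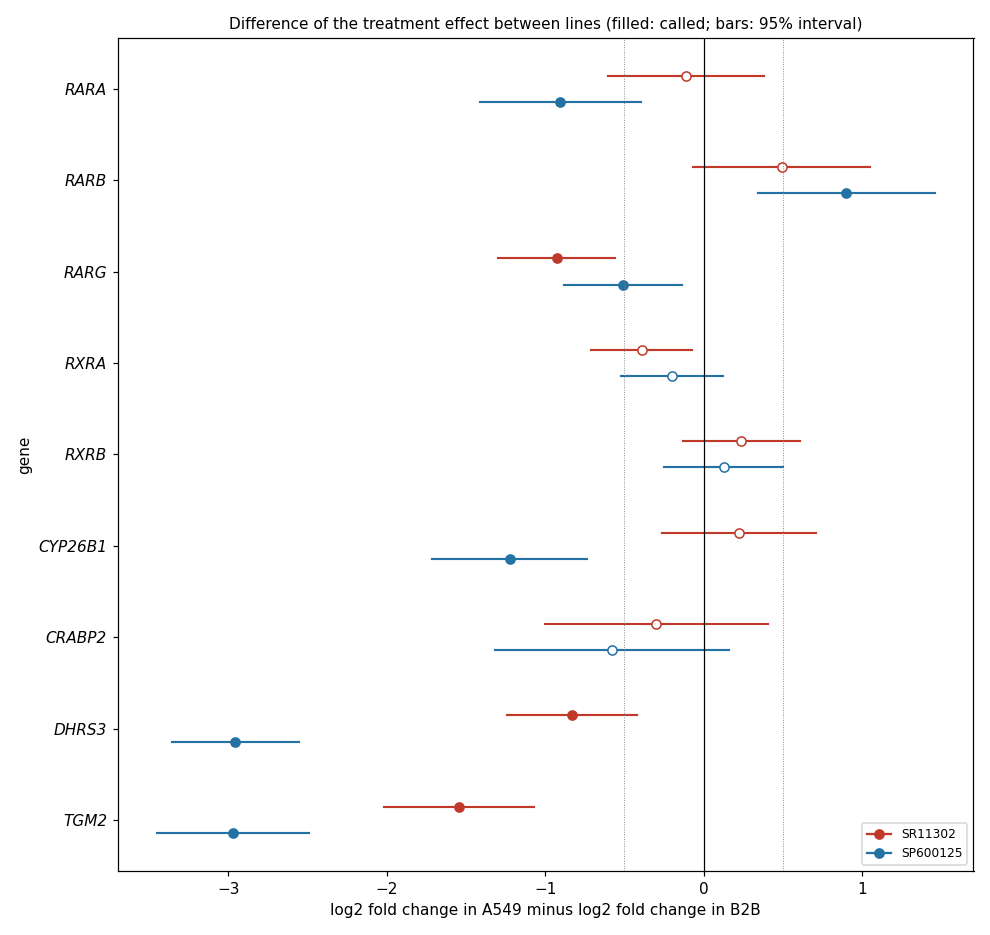
Log2 fold change over NT in A549 minus that in B2B for the 9 genes (points) with the 95% interval (bars), SR11302 in red and SP600125 in blue, filled where called. TGM2 (−2.97) and DHRS3 (−2.95) with SP600125 differ most between the lines, and RARB with SP600125 (0.90) is called on the other side of 0.

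The inhibitors were then compared with each other within each line, a comparison that uses no NT library. Their doses differ (50 µM SP600125, 10 µM SR11302), so it sets these treatments side by side as applied. In A549, SP600125 gave higher RARB (log2 fold change 0.73, SE 0.16, edgeR adjusted p = 0.00183) and lower TGM2 (−1.51, SE 0.15, edgeR adjusted p = 4.38e-06), CYP26B1 (−1.34, SE 0.15, edgeR adjusted p = 1.85e-05) and RARA (−1.10, SE 0.17, edgeR adjusted p = 0.000173) than SR11302, beside 37.1% of all genes called (16.6% higher and 20.5% lower). In B2B, SP600125 gave higher DHRS3 (1.89, SE 0.13, edgeR adjusted p = 3.25e-07) and lower RXRA (−0.53, SE 0.11, edgeR adjusted p = 0.0012) than SR11302, beside 33.7% of all genes called (15.6% higher and 18.1% lower). The RXRA call was lost by library size only (−0.47), with GC offsets (−0.14) and without B2B SP600125 replicate 2 (−0.45). TGM2 differed between the inhibitors in B2B by −0.08 (95% interval −0.42 to 0.26) and CYP26B1 by 0.11 (−0.24 to 0.46), which bounds any difference but does not show that they are equal.

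**Figure D4:**
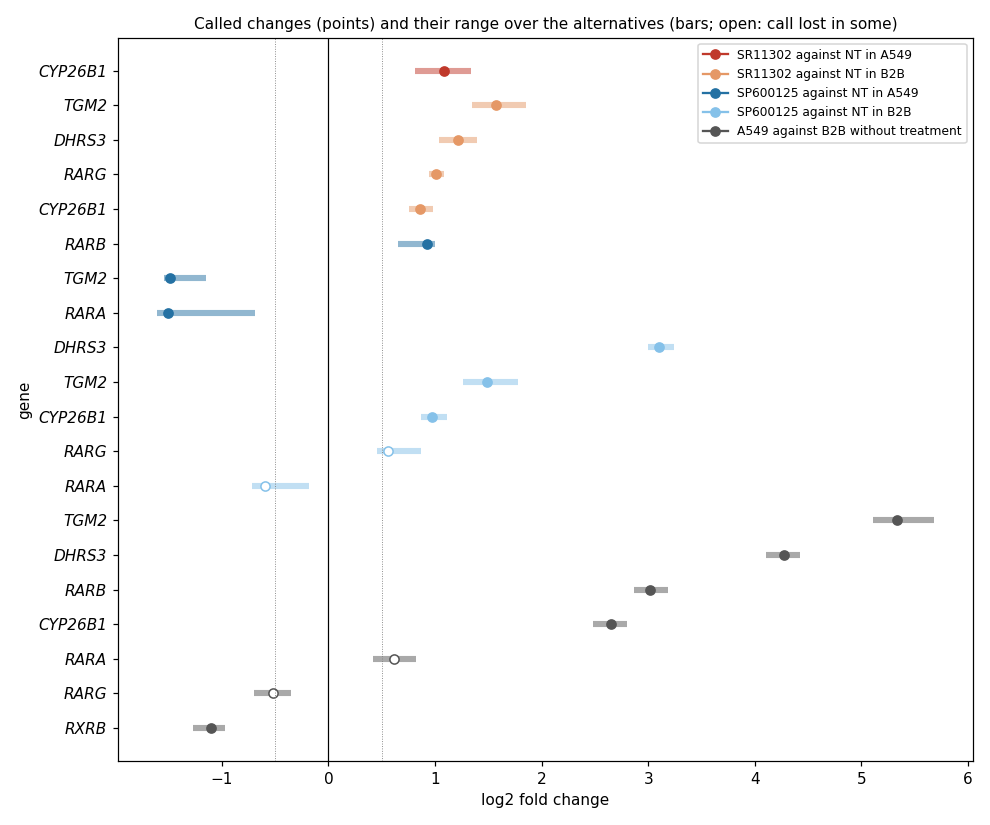
Log2 fold change of each called gene in the comparisons with NT and between the untreated lines (points), with the range over 12 alternatives (bars), including runs without single libraries and a run without replicate 2 of both NT groups chosen after seeing the data. Open points, RARG and RARA with SP600125 in B2B and RARA and RARG between the untreated lines, lost the call in at least 1 alternative.

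The wider pathway was read from gene lists chosen with earlier results of these data known. As given above, the shares of all genes called higher and lower were 14.8% and 13% with SR11302 and 23.9% and 25% with SP600125 in A549, and 11.4% and 11.1% with SR11302 and 21.2% and 22.6% with SP600125 in B2B, and several of the list counts lie near what these shares give. Among 14 listed enzymes of vitamin A metabolism, SR11302 gave 2 higher and 3 lower in A549 (median log2 fold change of those tested 0.36) and 2 higher and 2 lower in B2B (0.19). SP600125 gave 3 higher and 3 lower in A549 (0.07) and 1 higher and 4 lower in B2B (−0.21). Not all of these enzymes lead to retinoic acid, so the counts do not measure its supply. ALDH1A3, a retinaldehyde dehydrogenase that makes retinoic acid, moved in opposite directions in the lines under SR11302. It had 99.7 and 90.2 CPM in A549 with SR11302, against 45.0 and 49.8 CPM in A549 NT (log2 fold change 1.00, SE 0.11), and 42.3 and 36.6 CPM in B2B with SR11302, against 73.5 and 74.2 CPM in B2B NT (−0.90, SE 0.11). The difference between the lines was 1.91 (SE 0.16) and was called. ALDH1A3 was also called lower with SP600125 in B2B, at 47.8 and 45.3 CPM (−0.67, SE 0.11). In A549 with SP600125 it had 52.2 and 50.0 CPM (0.11, SE 0.11, not called). ALDH1A1, another such dehydrogenase, had 7737 to 13761 CPM in A549 libraries and 0 to 2.01 CPM in B2B libraries other than NT replicate 2, at 46.7 CPM. It is among the A549 marker genes. Its called fall with SR11302 in B2B, to 0 and 0.113 CPM, against 1.44 and 46.7 CPM in NT, remained called without NT replicate 2 (−4.73), but that with SP600125 in B2B did not (0.43, adjusted p = 0.313).

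RDH10, a retinol dehydrogenase that makes retinaldehyde, had 37.0 and 62.1 CPM with SR11302, against 72.4 and 73.9 CPM in A549 NT (log2 fold change −0.56, SE 0.18, edgeR adjusted p = 0.0260). SP600125 went the other way, with 153 and 163 CPM in A549 (1.11, SE 0.18, edgeR adjusted p = 0.000135). RDH14, a retinol dehydrogenase relative, had 0.671 and 1.10 CPM with SP600125 in A549, against 6.34 and 4.51 CPM in NT, and 0.572 and 0.122 CPM with SP600125 in B2B, against 3.07 and 3.42 CPM in NT. Both falls were called (−2.59 and −3.14). RDH13, of the same family, fell with SP600125 in A549 (−1.66) and B2B (−1.35), and DHRS4 fell with SR11302 in A549 (−1.15), where BCO1, which cleaves beta-carotene, rose (0.56). Other calls were made at low levels: in A549 with SP600125, RDH16 had 1.04 and 1.31 CPM, against 0.111 and 0.159 CPM in NT, ALDH1A2 had 0.298 and 0.207 CPM, against 0 and 0.0531 CPM, and DHRS9 had 0.224 and 0.482 CPM, against 1.39 and 1.27 CPM. In B2B, ALDH1A2 had 0.822 and 0.563 CPM with SR11302 and 0.416 and 0.365 CPM with SP600125, against 0.0958 and 0.122 CPM in NT. LRAT, which esterifies retinol for storage, had 0.370 and 0.563 CPM with SR11302 in B2B, against 0 CPM in both NT libraries. Of the 2 other clearance enzymes listed, CYP26C1 was too low to test. CYP26A1 had 1.55 to 2.91 CPM in the A549 libraries, and in B2B 0.208 and 0.365 CPM with SP600125, against 0 and 0.0407 CPM in NT, a rise that was called on few counts.

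Of 8 carriers and uptake receptors listed, 6 could be tested. SR11302 gave 2 calls in A549, both lower (median log2 fold change −0.34), and 1 higher and 2 lower in B2B (−0.99), while SP600125 gave 3 calls in A549, each lower (−0.89), and 2 higher and 2 lower in B2B (0.15). STRA6, the membrane receptor for retinol uptake and itself a retinoic acid target, had 9.24 and 9.51 CPM with SP600125 and 18.6 and 26.5 CPM with SR11302 in A549, against 25.6 and 20.5 CPM in NT. It fell with SP600125 in A549 (log2 fold change −1.30, SE 0.19), and in B2B it fell with SR11302 (−1.81, SE 0.37) and SP600125 (−2.91, SE 0.45), where NT had 1.39 and 1.63 CPM. FABP5, a carrier of retinoic acid and fatty acids with near-identical copies elsewhere in the genome, had at most 0.583 CPM in all treated libraries, against 42.0 to 47.0 CPM in A549 NT and 4.97 to 5.70 CPM in B2B NT. It is one of the genes more than 20 times lower in all treated groups of both lines counted above, its counts are uncertain because of the copies, and it makes up 1 of the lower calls in each comparison. RBP4, the blood carrier of retinol, fell in A549 with SR11302 (−2.37) and SP600125 (−1.13) and rose with SP600125 in B2B (2.16), and RBP7, a cellular retinol carrier, rose in B2B with SR11302 (1.47) and SP600125 (1.83).

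Of 21 other genes known to respond to retinoids, 17 could be tested. SR11302 gave 4 calls in A549, each higher (median log2 fold change 0), and 3 higher and 1 lower in B2B (0), and SP600125 gave 4 higher and 2 lower in A549 (0.17) and 5 higher and 2 lower in B2B (0.03). HOXA5, a homeobox gene, had 8.01 and 9.25 CPM with SR11302 and 9.16 and 9.65 CPM with SP600125 in A549, against 4.84 and 3.66 CPM in NT (log2 fold changes 1.02 and 1.15, both called). RARRES3, named for its induction by a retinoid, had 2.34 and 4.96 CPM with SR11302 and 4.16 and 3.96 CPM with SP600125 in B2B, against 0.671 and 1.06 CPM in NT (log2 fold changes 2.02 and 2.20, both called), and in A549 it rose by 1.29 with SR11302. TNFAIP2 (0.56) and GPRC5A (0.55) were the other rises with SR11302 in A549, and RARRES1 rose with SP600125 in B2B (1.79). Both TNFAIP2 and GPRC5A also had called falls with SP600125. TNFAIP2 fell in A549 (−0.60), and GPRC5A fell in B2B (−1.14), with 163 and 215 CPM, against 411 and 424 CPM in NT. The remaining lower calls in this list were those of STRA6, given above. CD38, an NAD-consuming enzyme induced by retinoic acid in myeloid cells, had 17.4 and 18.7 CPM with SP600125 in A549, against 6.67 and 7.75 CPM in NT (1.33, SE 0.20).

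**Figure D5:**
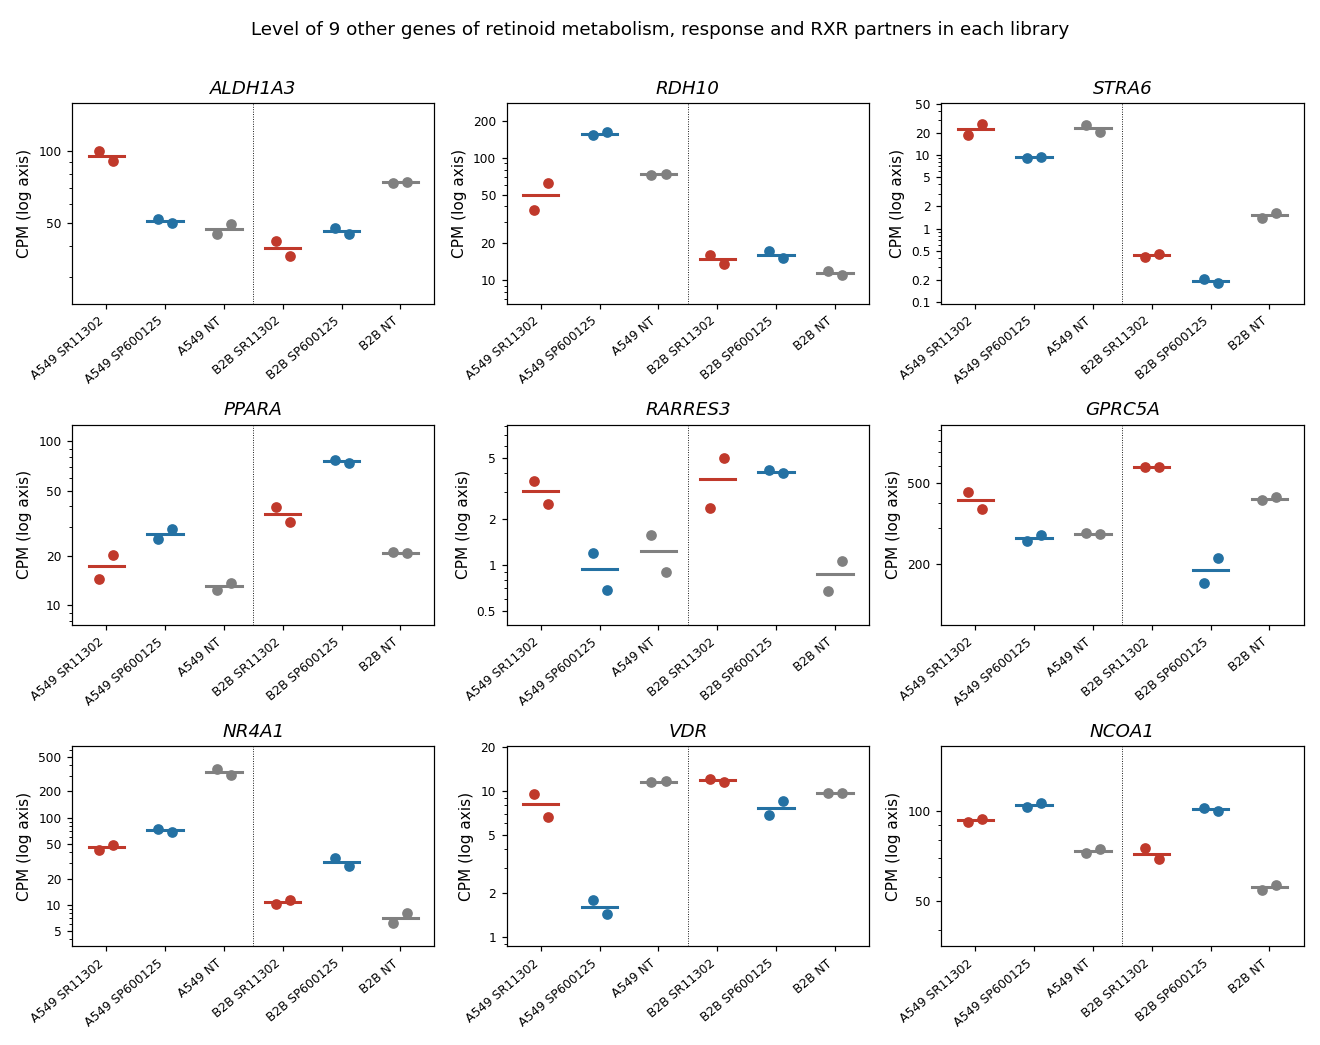
Levels (CPM, log axis) of 9 further genes, where points are libraries and short lines are group means, coloured and ordered as in the plot of the 9 members, chosen among the named genes without a library at 0. NR4A1 in A549 is lower with SR11302 (42.9 and 48.9 CPM) and SP600125 (73.5 and 68.7 CPM) than in NT (360 and 308 CPM), and STRA6 in B2B is lower in all treated libraries than in NT.

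RXR also pairs with other nuclear receptors, of which 14 were listed and 12 tested. SR11302 gave 3 calls in A549, each lower (median log2 fold change −0.12), and 2 in B2B, both higher (0.26), and SP600125 gave 1 higher and 3 lower in A549 (−0.22) and 4 higher and 1 lower in B2B (0.26). NR4A1, an immediate early nuclear receptor, fell in A549 by 2.86 with SR11302 (SE 0.15) and by 2.23 with SP600125 (SE 0.14) on the log2 scale. In B2B it had 10.3 and 11.4 CPM with SR11302 and 34.4 and 27.6 CPM with SP600125, against 6.13 and 8.10 CPM in NT, and rose by 0.60 and 2.12. Its relative NR4A2 fell in A549 with SR11302 (−2.33) and SP600125 (−0.80) and rose with SP600125 in B2B (3.56). VDR, the vitamin D receptor, had 1.79 and 1.45 CPM with SP600125 in A549, against 11.4 and 11.7 CPM in NT (−2.84, SE 0.24), and fell by 0.52 with SR11302. PPARA, a fatty acid receptor, had 25.3 and 29.3 CPM with SP600125 in A549, against 12.5 and 13.6 CPM in NT, and 76.9 and 73.7 CPM with SP600125 in B2B, against 21.0 and 20.7 CPM in NT. PPARG fell with SP600125 in B2B, at 0.208 and 0.122 CPM, against 0.671 and 0.529 CPM in NT. Of 7 receptor coregulators, 0 were called with SR11302 in either line by edgeR or DESeq2, and at an unadjusted p under 0.05 edgeR gave 2 higher and 2 lower in A549 and 1 higher and 1 lower in B2B. SP600125 gave 2 higher in A549 (median log2 fold change 0.44) and 3 higher in B2B (0.37), and 0 lower in either line by edgeR or DESeq2, where edgeR at an unadjusted p under 0.05 gave 1 lower in A549 and 0 in B2B. NCOA1, a coactivator of nuclear receptors, was called higher in both lines, with 103 and 107 CPM in A549, against 72.5 and 74.5 CPM in NT (0.52, SE 0.10), and 103 and 100.2 CPM in B2B, against 54.6 and 56.6 CPM in NT (0.87, SE 0.10). NRIP1, a corepressor, was the other gene in A549 (0.79, SE 0.16), and the coactivators NCOA2 (0.77, SE 0.15) and NCOA3 (0.73, SE 0.12) were the others in B2B.

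The subunits of AP-1, the factor both inhibitors act on, were read in the same way. In A549 all 7 subunit genes were called lower with SR11302 (median log2 fold change −0.97) and 6 of 7 with SP600125 (−1.44), with FOSB at −4.78 and −3.75 and FOSL1 at −1.87 and −4.02. In B2B, SR11302 gave 1 higher and 1 lower (−0.43) and SP600125 gave 3 higher and 3 lower (−0.27), with FOSL1 at −3.25 and FOS at 2.79. Of 5 targets of the aryl hydrocarbon receptor, SR11302 gave 1 higher in A549 (median log2 fold change 0.19) and 3 higher in B2B (0.66). SP600125 gave 3 higher in A549 (0.85) and 2 higher and 2 lower in B2B (−0.49). In B2B with SR11302 the 3 were CYP1A1 (1.74), NQO1 (1.31) and AHRR (0.66). With SP600125 in B2B, CYP1A1 (1.80) and NQO1 (0.99) rose, and CYP1B1 (−2.12) and AHRR (−0.76) fell. CYP1A1 was low, at 1.46 to 1.72 CPM in treated B2B libraries, against 0.448 and 0.479 CPM in NT. CYP1B1 had 74.2 and 76.6 CPM with SP600125 in B2B, against 324 and 331 CPM in NT.

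Over the 12 libraries the log2 CPM of CYP26B1 and TGM2 went together (Pearson r = 0.97), as did CYP26B1 and DHRS3 (0.90) and DHRS3 and TGM2 (0.90), while RARB and RXRB went apart (−0.91). These values are descriptions with no test, and they include the difference between the lines, in which CYP26B1, DHRS3, TGM2 and RARB are higher and RXRB lower in A549. The genes most like each member called in a comparison with NT, among 11104 genes with at least 10 CPM in a group, were SHB, TRMT61A and ZNF598 for RARA (r of 0.980 to 0.984) and CD38, URI1 and AADAC for RARB (0.995 to 0.997). They were MAN2B2, ZNF76 and ACAT2 for RARG (0.969 to 0.971) and SLC16A9, TMEM27 and ZNF704 for CYP26B1 (0.974 to 0.987). For DHRS3 they were BCL2L1, RIMKLA and SOCS2 (0.986 to 0.990), and for TGM2 they were HSPA12B, RAB15 and SLC22A5 (0.986 to 0.989).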

How the data were processed

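The authors aligned the reads of 12 mRNA libraries to hg38 with STAR 2.7.10a and counted them per gene with HTSeq 1.99.2. The deposited values are raw counts per gene symbol, with no normalization. The sources used here name neither the annotation nor the strand setting nor the instrument of each library. Rows that name no gene were left out of library sizes (reads without a feature, 14.6% to 25.9%). All 12 libraries were fitted with edgeR 4.0.16 (R 4.3.3) in 1 model of 6 groups, with TMM factors of 0.906 to 1.10 and filterByExpr, leaving 16373 genes and 6 residual degrees of freedom, and p-values were adjusted over all genes tested. The standard error is the log2 fold change over the square root of F. The code was tested on simulated data. The 9 genes and the gene lists were chosen with earlier results of these data known. Some listed genes are not reported here and were left out of the list counts, medians and sums. All 9 were named by rule, and in each list genes among the 4 called with the largest change in a comparison. RDH10 and RDH13 with SP600125 in A549, ALDH1A3 with SP600125 in both lines and the marker genes were named after their values were seen. The most alike genes are the 3 with the highest Pearson r of log2 CPM (prior count 2), without uncharacterized loci and antisense RNAs. Alternatives were DESeq2 1.42.0 (size factors, Wald test), library size only, no filter, the compared groups only, a replicate block, GC offsets and single libraries left out.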

Additional observations from a re-analysis of the deposited data

Results flagged for a closer look

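For 9 results the change over NT differed between A549 and B2B by the interaction term of the edgeR fit, given here as the log2 fold change in A549 minus that in B2B. With SR11302 these were TGM2 (−1.54), RARG (−0.93) and DHRS3 (−0.83). With SP600125 they were TGM2 (−2.97), DHRS3 (−2.95), CYP26B1 (−1.22), RARA (−0.90), RARB (0.90) and RARG (−0.51). DHRS3 started at 82.1 and 78.9 CPM in A549 NT and at 3.83 and 4.48 CPM in B2B NT, and TGM2 at 300 and 274 CPM in A549 NT and at 5.84 and 8.31 CPM in B2B NT, and the part of these starting levels in the differences was not tested. With 2 libraries per group, single outlying libraries could not be tested for.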

How the results depend on the processing

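Of the 35 changes called for the 9 genes over all comparisons, 26 were called under every alternative and none changed sign. The 9 others lost the call under at least 1 alternative, with the values given beside each result, for RARG in the SP600125 difference between lines as a range. The replicate numbers did not pair the libraries (correlations of same-numbered deviations between −0.26 and 0.24 over group pairs), and with a replicate block 1 call was lost, RARG in the difference of the SP600125 change between lines (−0.50, adjusted p = 0.0566). By library size only the median log2 fold change of all genes moved by 0.12 for SR11302 in A549, 0.14 for SP600125 in B2B and −0.12 between the untreated lines. The share of called genes that were higher then moved to 66.3% for SR11302 in A549 (53.2% with TMM), 61.1% for SR11302 in B2B (50.7%) and 59.1% for SP600125 in B2B (48.5%).

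The number of the 9 genes called was 2 for SR11302 in A549 by library size only and with GC offsets (1 to 2 without single libraries), 6 for SP600125 in A549 with GC offsets, 3 to 6 for the SP600125 difference between lines without single libraries, and, for SP600125 against SR11302 in B2B, 1 by library size only and 1 to 3 without single libraries. Without replicate 2 of both NT groups it was 1 and 4 for SR11302 and 4 and 4 for SP600125 in A549 and B2B, and 6 between the untreated lines. Of all genes tested, 2406 were called for SR11302 in B2B without B2B NT replicate 1 and 2072 without replicate 2 of both NT groups (chosen after seeing the data), against 3677. For the SR11302 difference between lines, 1375 to 4768 were called without single libraries and 1295 without both NT replicates 2, against 2579. For that of SP600125, 2741 were called without A549 SP600125 replicate 1 and 2277 without both NT replicates 2, against 4121.

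Changes of sign occurred in changes that were not called, and the cause was not tested. Of these, RXRA with SP600125 in A549 had an adjusted p under 0.05 in both directions (−0.42, adjusted p = 0.00391, and 0.29 with GC offsets, adjusted p = 0.0172). By library size only, RXRA with SR11302 in A549 was 0.042 and CRABP2 between the untreated lines −0.12. With GC offsets, log2 fold changes were 0.14 for RXRA with SR11302 in A549, −0.047 for RXRB with SR11302 in B2B, 0.29 for RXRA, 0.16 for CYP26B1 and 0.28 for CRABP2 with SP600125 in A549, −0.017 for RARB and 0.12 for RXRA with SP600125 in B2B, and −0.17 for CRABP2 between the untreated lines. RARB with SP600125 in B2B was −0.0022 with DESeq2 size factors, −0.0013 by the DESeq2 Wald test and −0.016 with the compared groups only. CRABP2 between the untreated lines was −0.014 with DESeq2 size factors, −0.012 by the Wald test, −0.0068 with no filter and −0.039 with the compared groups only. Without replicate 2 of both NT groups, RARG was −0.055, CRABP2 −0.096 and TGM2 −0.038 with SR11302 in A549, and RARG −0.084 with SP600125 in A549. Without single libraries, the values with SR11302 in A549 were −0.053 to 0.22 for RARG, −0.16 to 0.012 for RXRA, −0.094 to 0.32 for CRABP2 and −0.16 to 0.21 for TGM2. RXRB with SR11302 in B2B was −0.10 to 0.17. With SP600125, RARG was −0.082 to 0.19 and CRABP2 −0.31 to 0.10 in A549, and RARB −0.12 to 0.19 in B2B. CRABP2 between the untreated lines was −0.22 to 0.21. A group left with 1 library is assumed to vary like the others. CRABP2 in all libraries and RARB in B2B rest on at most 132 counts, which limits what can be seen for them.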
